A study of Mus musculus with 23 samples.

Results

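The genes described here are the replication-dependent, or clustered, histone genes of the mouse. They were taken as every gene name in the deposited expression tables that begins with Hist1h, Hist2h, Hist3h or Hist4h, and 67 of the 23369 gene names met this rule, 6 of family H1, 18 of H2A, 18 of H2B, 12 of H3 and 13 of H4. RNA-seq libraries were made from mouse embryonic stem cells (ESCs) homozygous for a floxed Kdm2b allele. The sample labels call the line MS12, while the study's methods describe MS12 cells as those in which the allele was made and the floxed ERT2-Cre lines as derived from crosses of mice that carry it. Cre fused to a hormone-binding domain in these cells removes, on exposure to 4-hydroxytamoxifen, the exon for most of the ZF-CxxC domain with which KDM2B binds unmethylated CpG DNA. Both groups are the same Kdm2b fl/fl line at passages p10 to p20, grown on mitomycin-inactivated embryonic fibroblasts and then kept overnight without them. The 3 samples labelled untreated had no tamoxifen, and the 3 labelled tamoxifen had it for 72 hr, at 800 nM in the sample labels and 800 µM in the series text. By the labels all 6 come from 1 line, and p-values therefore measure the spread between cultures or libraries of that line. The names of the deposited files read the opposite way round for every RNA-seq sample. Groups follow the sample labels throughout, and under the file names each difference below would keep its size and change its sign. Kdm2b itself was at 26.95, 21.5 and 27.7 FPKM (fragments scaled by transcript length and library size) in untreated and 19.9, 21.9 and 25.0 FPKM in tamoxifen samples, a log2 difference of -0.19 ± 0.11 (limma with the replicate number as a block, adjusted p = 0.306), and a value for the whole gene does not resolve the floxed exon and so does not check the labels.

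Clustered histone genes supply the bulk histones that package newly copied DNA, and their transcripts accumulate in S phase. Their mRNAs are the main class of animal mRNA without a polyA tail. A short stem-loop after the stop codon is bound by SLBP, and the transcript is cut just behind it. Some of these genes also give polyadenylated transcripts that run past the stem-loop, for example in cells that leave the cycle. H2A carries the lysine that PRC1 ubiquitylates (H2AK119ub1), and H3 the lysine that PRC2 methylates. The libraries were made from RNA selected for a polyA tail, so most of the normal transcripts of these genes should be lost before sequencing.

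The stem-loop is shown first because the results are ordered by where each gene model ends relative to it. A search of the mm9 genome (NCBIM37) for GGNNNTNTNNANNNCC on the transcribed strand, with all 6 pairs of the stem complementary, found it within 100 bases after the stop codon of 58 of the 64 member genes with a matched coding sequence (90.6%), and of 3 of 21838 other protein-coding genes (0.0137%), one of which is H2afx. It began 21 to 58 bases after the stop codon. The sites of genes named below are printed with 5 flanking bases on each side in lower case and the stem-loop in capitals.
Hist1h1a, chr13:23856256-23856281, plus strand: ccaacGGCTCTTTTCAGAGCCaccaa
Hist1h2ag, chr13:22134347-22134372, minus strand: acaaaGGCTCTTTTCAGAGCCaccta
Hist1h2bk, chr13:22128164-22128189, plus strand: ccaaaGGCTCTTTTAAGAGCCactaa
Hist1h3c, chr13:23836911-23836936, minus strand: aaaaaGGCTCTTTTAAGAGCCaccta
Hist1h4d, chr13:23673814-23673839, plus strand: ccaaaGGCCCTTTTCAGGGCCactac
Hist1h4b, chr13:23849230-23849255, plus strand: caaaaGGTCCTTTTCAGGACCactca
Hist1h4i, chr13:22132830-22132855, minus strand: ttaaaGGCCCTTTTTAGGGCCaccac
Hist1h1c, chr13:23831376-23831401, plus strand: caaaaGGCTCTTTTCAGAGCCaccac
Hist1h2bc, chr13:23776511-23776536, plus strand: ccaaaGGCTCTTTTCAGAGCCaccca
The letters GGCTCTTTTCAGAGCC stood in 36 members of H1, H2A, H2B and H3. A further 9 members of those families had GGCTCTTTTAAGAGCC. The H4 genes had their own stems, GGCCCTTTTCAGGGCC in 8, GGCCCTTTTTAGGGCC in 2 and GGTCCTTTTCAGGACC in 2. Hist1h1c and Hist1h2bc carry the same stem-loop letters as Hist1h1a and Hist1h2ag, but their gene models run on for 840 and 7818 bases behind it, while those of Hist1h1a and Hist1h2ag stop 7 and 6 bases behind it.

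Summed over all 67 genes, expression was higher in the tamoxifen sample of every replicate number. The sum was 168.9, 129.3 and 134.4 FPKM in untreated replicates 1 to 3, and 290.1, 247.9 and 168.3 FPKM in tamoxifen replicates 1 to 3. The ratio was 1.72, 1.92 and 1.25 within replicates 1, 2 and 3. The means were 144 ± 21.5 and 235 ± 61.8 FPKM (SD, n = 3), a ratio of 1.63. The groups overlapped narrowly, since tamoxifen replicate 3 lay just below untreated replicate 1. The members together made up 0.0369 to 0.0404% of the summed FPKM of genes with loci of at least 300 bases in untreated samples, and 0.0450 to 0.0695% in tamoxifen samples.

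Levels were low and very unequal among the members. Hist1h2ap was at 0 in all samples, 45 members had a mean of at least 1 FPKM, and 39 of those 45 lay above 0 in the tamoxifen minus untreated difference. The 3 highest members held 28.2 to 39.9% of the sum in each sample. Hist1h2ao had a mean of 34.4 FPKM over the 6 samples, Hist1h4i of 20.8, Hist1h2ag of 10.1 and Hist1h2bc of 8.49.

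The difference in mean log2(FPKM + 0.1), tamoxifen minus untreated, was above 0 for 53 members, below 0 for 13 and 0 for 1, with a median of 0.58. The median over all 12997 gene names that passed the filter (at least 0.5 FPKM in at least 3 of 6 samples) was -0.02. Of the members 51 passed this filter, 1 of them with all untreated samples under 0.5 FPKM, and 16 did not and were not tested. The 51 tested had a median of 0.82, a value that depends on the filter, and the 137 other tested genes with a locus under 1000 bases had 0.11. All 3 tamoxifen samples lay above all 3 untreated samples for 21 of the 67 members, against 3.09% of all tested genes. The opposite held for 2 members, Hist2h2be and Hist3h2bb-ps, neither of them tested and both named here after their values were seen (5.4% of all tested genes). The 21 include Hist2h2ac, which was not tested and was named after its values were seen. They also include Hist2h3b, which passed the filter only through its tamoxifen samples. The shares of all tested genes cover only names past the filter, so they and the member counts are not like for like.

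Whether single members pass the test depended on the replicate numbers. In the limma fit without a block, 0 members were called higher and 0 lower at an adjusted p of 0.05, where 0.0231% and 0.00769% of all tested genes were called. In that fit 22 of the 51 tested members were higher at an unadjusted p under 0.05, against 1.85% of all tested genes, and 0 were lower. These 22 include Hist2h3b, which passed the filter only through its tamoxifen samples. With the replicate number as a block, 22 of the 51 tested members were called higher and 0 lower. One of the 22, Hist2h3b, entered the test only through its tamoxifen samples and so had to differ, and without it 21 of 50 rose. The background of that fit was 4.33% higher and 6.06% lower over all tested genes, 18.8% higher and 2.76% lower among all 181 tested genes with loci under 1000 bases, members included, and 8.76% higher among the 137 of these that are not members. Those 21 were 1 gene of H1, 8 of H2A, 3 of H2B, 6 of H3 and 3 of H4. The count rested on replicate number 2: without it the blocked fit called 1 member, Hist1h3c, and 0.277% of all tested genes, while without number 1 it called 27 higher (5.72% of all tested genes) and 2 lower, and without number 3 it called 20 higher (2.76%). Each of the 22 genes was higher in the tamoxifen sample of all 3 replicate numbers. Its difference therefore had to stay above 0 when any number was left out, which is no separate check. In the following, each difference is in log2(FPKM + 0.1) with the standard error of the blocked fit, and each adjusted p is from limma with the block. The adjusted p without the block was 0.370 or more for each of these genes.

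**Figure D1:**
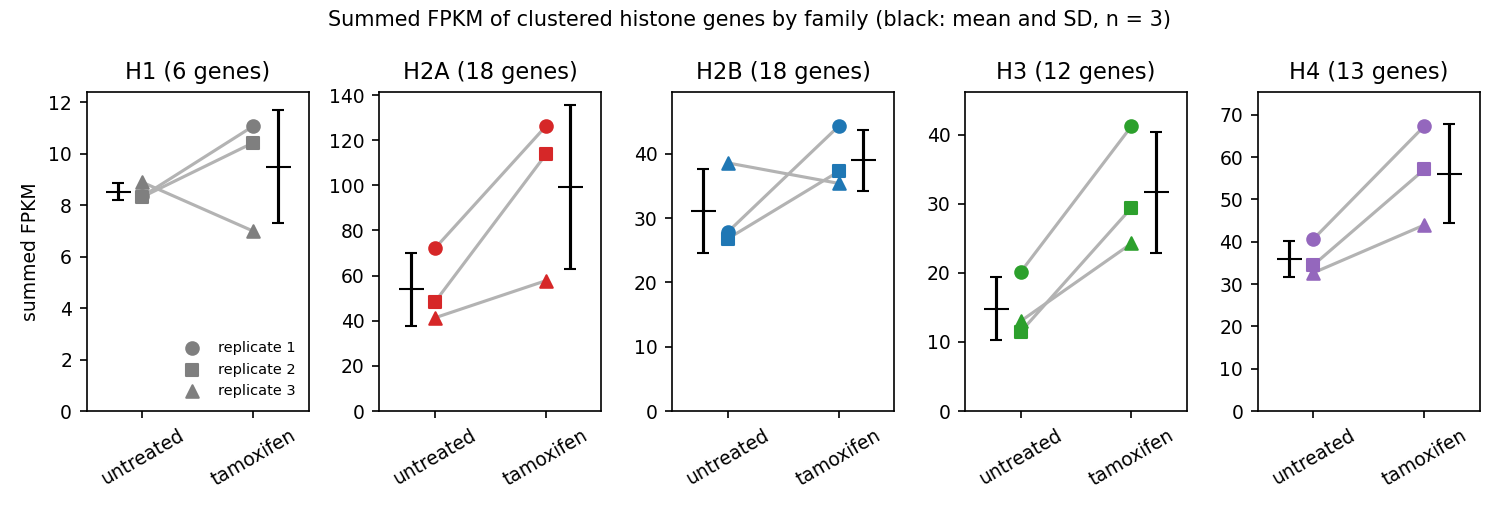
Summed FPKM of the clustered histone genes of each family (linear axes from 0) in the 3 untreated and 3 tamoxifen samples, with grey lines joining samples of 1 replicate number and black bars for the mean and SD (n = 3). The sums of H2A, H3 and H4 lie higher in the tamoxifen sample of every replicate number, while those of H1 and H2B do so in replicates 1 and 2 and not in 3.

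Linker histone H1, which binds DNA between nucleosomes, differed among its genes. The family sum was 8.34, 8.32 and 8.90 FPKM in untreated and 11.1, 10.4 and 6.99 FPKM in tamoxifen samples. Hist1h1a (chr13:23855537-23856283, mm9) stood at 1.49, 0.640 and 0.627 FPKM in untreated replicates 1 to 3 and at 4.76, 3.17 and 1.91 FPKM in tamoxifen replicates 1 to 3. All tamoxifen samples exceeded all untreated samples, and the gene rose by 1.74 ± 0.19 (adjusted p = 0.00418), the largest difference of any member. Hist1h1c (chr13:23830676-23832236), the H1 gene with the highest level, was at 4.98, 6.97 and 7.51 FPKM in untreated and 4.03, 5.29 and 4.05 FPKM in tamoxifen samples. It was lower in the tamoxifen sample of all 3 replicate numbers, with a difference of -0.52 ± 0.15 that did not pass the test (adjusted p = 0.0628). Hist1h1b was at 1.02, 0.165 and 0.104 FPKM in untreated and 0.887, 1.25 and 0.371 FPKM in tamoxifen samples (difference 1.13 ± 0.45, adjusted p = 0.144). The other 3 H1 genes did not pass the filter.

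H2A forms a dimer with H2B, and its genes made up the largest family sum. That sum was 72.1, 48.3 and 41.3 FPKM in untreated and 126, 114 and 57.8 FPKM in tamoxifen samples, a ratio of means of 1.84, with tamoxifen replicate 3 below untreated replicate 1. Hist1h2ao had the highest level, at 34.7, 18.8 and 12.5 FPKM in untreated and 60.4, 60.7 and 19.4 FPKM in tamoxifen samples. The tamoxifen value was the higher within each replicate number although the groups overlapped, and the gene rose by 1.04 ± 0.19 (adjusted p = 0.0182). Its level is uncertain, since the name has 2 rows at separate loci with nearly equal values that were summed, and Hist1h2ap, whose coding sequence is identical, was listed at 0. Hist1h2ag (chr13:22134346-22134818) was at 7.32, 6.86 and 5.89 FPKM in untreated and 18.3, 13.99 and 8.13 FPKM in tamoxifen samples. Here the groups did not overlap, and the rise was 0.93 ± 0.16 (adjusted p = 0.0162). Hist1h2ae was at 4.10, 2.48 and 2.54 FPKM in untreated and 6.83, 4.38 and 5.04 FPKM in tamoxifen samples, also without overlap (0.83 ± 0.13, adjusted p = 0.0113). The other H2A genes that rose were Hist1h2ad, Hist1h2af, Hist1h2ah, Hist1h2ai and Hist1h2an, with differences from 0.61 (Hist1h2af) to 0.99 (Hist1h2an) and adjusted p from 0.0119 to 0.0382. Each of them was higher in the tamoxifen sample of all 3 replicate numbers, and of these 5 the groups were apart in Hist1h2an.

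H2B, the partner of H2A, had a smaller ratio as a family. The sum was 27.8, 26.8 and 38.6 FPKM in untreated and 44.3, 37.2 and 35.4 FPKM in tamoxifen samples, a ratio of means of 1.25. The members behind these sums differed in direction. Hist1h2bk (chr13:22127756-22128136) was at 1.69, 1.45 and 1.43 FPKM in untreated and 6.05, 3.48 and 2.69 FPKM in tamoxifen samples, and rose by 1.28 ± 0.20 (adjusted p = 0.0111). Hist1h2bj was at 1.96, 1.73 and 2.25 FPKM in untreated and 6.96, 3.88 and 3.24 FPKM in tamoxifen samples (1.14 ± 0.23, adjusted p = 0.0247). Hist1h2bn rose by 1.41 ± 0.23 (adjusted p = 0.0137), from 0.602 to 1.05 FPKM in untreated to 1.95 to 2.49 FPKM in tamoxifen samples. None of these 3 genes had overlapping groups. The H2B genes with the highest levels did not share this pattern. Hist1h2bc (chr13:23776068-23784349) was at 6.41, 6.89 and 15.9 FPKM in untreated and 6.47, 6.23 and 9.10 FPKM in tamoxifen samples, a difference of -0.31 ± 0.16 (adjusted p = 0.250). Leaving out untreated replicate 3 alone, the highest value, changed the sign, to 0.11. Dropping replicate number 3 from both groups in the blocked fit kept it below 0, at -0.06. Hist3h2ba (chr11:58762413-58763032) was at 5.55, 2.60 and 5.40 FPKM in untreated and 4.32, 3.63 and 3.49 FPKM in tamoxifen samples (-0.17 ± 0.21, adjusted p = 0.613).

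H3, which with H4 forms the core tetramer of the nucleosome, had the largest ratio of family means, 2.13. Its sum was 20.1, 11.4 and 13 FPKM in untreated and 41.2, 29.4 and 24.3 FPKM in tamoxifen samples, and every tamoxifen sample exceeded every untreated sample. Hist1h3c (chr13:23836911-23837390) was at 5.71, 2.80 and 2.12 FPKM in untreated and 13.9, 10.96 and 7.27 FPKM in tamoxifen samples. It rose by 1.65 ± 0.15, with the smallest adjusted p of any member (0.00305) and without overlap. Hist1h3h, at 3.05, 1.36 and 2.56 FPKM in untreated and 6.48, 4.67 and 3.00 FPKM in tamoxifen samples, rose by 1.00 ± 0.26 at an adjusted p of 0.0492, although tamoxifen replicate 3 lay just under untreated replicate 1. Hist2h3b was at 0.481, 0.262 and 0.237 FPKM in untreated and 1.18, 1.402 and 0.719 FPKM in tamoxifen samples (difference 1.49 ± 0.27). It is the member that passed the filter only through the tamoxifen group, so its call is not counted as a rise. The 21 genes that rose all lie in the Hist1 cluster on chromosome 13, which held 45 of the 51 tested members. Hist1h3b, Hist1h3d, Hist1h3e and Hist1h3i rose by 1.11 to 1.31 with adjusted p from 0.0176 to 0.0399, and in none of these 4 did the groups overlap. Hist1h3a was at 3.07, 1.11 and 1.04 FPKM in untreated and 2.96, 2.59 and 2.81 FPKM in tamoxifen samples and did not pass (0.82 ± 0.27, adjusted p = 0.0942).

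H4 genes encode 1 protein from many gene copies, and their sum was 40.6, 34.5 and 32.6 FPKM in untreated and 67.3, 57.1 and 43.9 FPKM in tamoxifen samples, with a ratio of means of 1.56 and no overlap. Hist1h4d (chr13:23673471-23673782) was at 2.98, 1.74 and 1.53 FPKM in untreated and 6.97, 6.16 and 4.98 FPKM in tamoxifen samples, and rose by 1.54 ± 0.15 (adjusted p = 0.00347). Hist1h4j rose by 1.21 ± 0.18 (adjusted p = 0.0111) and Hist1h4b by 0.83 ± 0.18 (adjusted p = 0.0310). These last genes are the 2 with the stem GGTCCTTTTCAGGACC. Hist1h4i (chr13:22132685-22133221) had the highest H4 level, at 19.7, 16.5 and 16.6 FPKM in untreated and 29.2, 24.2 and 18.9 FPKM in tamoxifen samples. The tamoxifen value was the higher in all 3 replicate numbers, but the difference of 0.43 ± 0.11 missed the threshold (adjusted p = 0.0505). Hist1h4n was at 3.37, 2.18 and 2.90 FPKM in untreated and 4.03, 6.27 and 3.52 FPKM in tamoxifen samples (0.67 ± 0.24, adjusted p = 0.121). Its coding sequence is identical to that of Hist1h4m, and 1 of its 2 rows lies inside the Hist1h4m model. Hist1h4m was at 1.26, 1.28 and 1.06 FPKM in untreated and 2.21, 0.556 and 0 FPKM in tamoxifen samples (-1.28 ± 0.67, adjusted p = 0.241). The values of these 2 names are uncertain one by one.

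**Figure D2:**
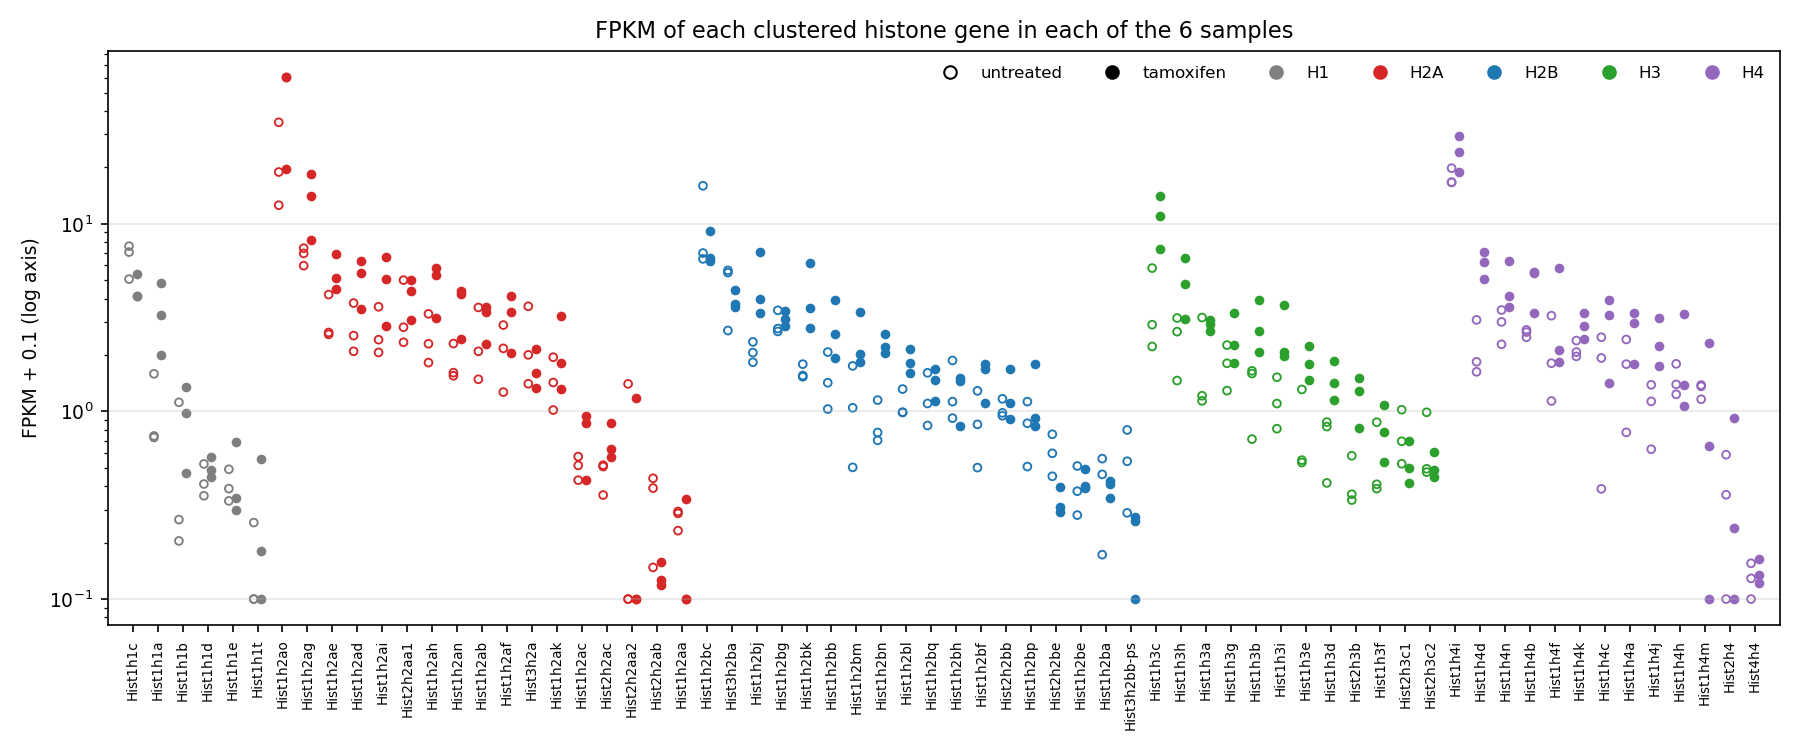
FPKM plus 0.1 (log axis) of the 66 members with any signal, grouped by family and ordered by mean level, with open circles for the 3 untreated and filled circles for the 3 tamoxifen samples. Filled circles lie above open ones for Hist1h1a, Hist1h3c and Hist1h4d. The 2 kinds overlap for Hist1h1c, Hist1h2bc and Hist3h2ba, with Hist1h1c lower in the tamoxifen sample of all 3 replicate numbers.

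Of the 21 genes that rose, 20 have an annotated model that is the coding sequence alone or ends no more than 30 bases behind the stem-loop. Among these 20, Hist1h2an has the coding sequence alone, and no stem-loop was found after its stop codon. In 31 members the model is the coding sequence alone. Their summed FPKM was 47.5, 39.9 and 34.9 in untreated and 96.8, 79.0 and 59.8 in tamoxifen samples, a ratio of means of 1.92, and 14 of 25 tested rose, Hist2h3b left out. In 10 further members the model ends before the stem-loop or within 30 bases behind it, the ratio was 2.12, and 6 of 9 tested rose. In 19 members, among them Hist1h1c, Hist1h2bc, Hist3h2ba and Hist1h4i, the model runs more than 30 bases past the stem-loop. Their sum was 55.7, 47.8 and 64.0 FPKM in untreated and 69.8, 59.9 and 55.6 FPKM in tamoxifen samples, a ratio of 1.11, and 1 of 12 tested, Hist1h2ae, rose. The 4 members with longer models but no motif and the 3 without a matched coding sequence had ratios of 1.25 and 0.862, with 0 of 4 tested past the threshold. By length, the 46 members with loci under 600 bases had a ratio of 1.84, the 7 from 600 to 1000 bases 1.38 and the 14 over 1000 bases 0.811. Locus length and the end of the model go together and cannot be told apart here. No test of these groups of members was made, and the values are a description.

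**Figure D3:**
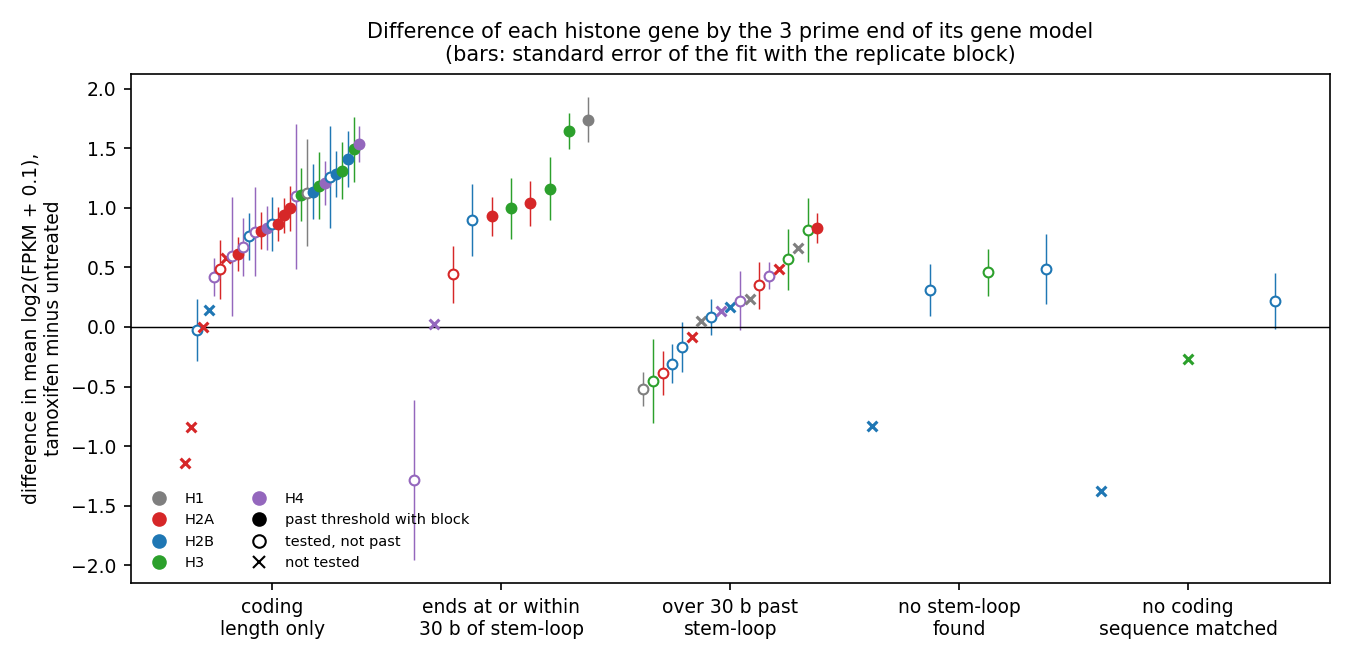
Difference in mean log2(FPKM + 0.1), tamoxifen minus untreated, of each member by where its gene model ends, coloured by family, with filled circles for genes past the threshold in the blocked fit, open circles for tested genes not past it, crosses for untested genes and bars for the standard error. In the first 2 classes 20 of 34 tested members are past the threshold, Hist2h3b left out, and in the class that runs over 30 bases past the stem-loop 1 of 12.

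The ratio also varied by cluster. The 53 genes of the Hist1 cluster on chromosome 13 summed to 116 to 154 FPKM in untreated and 155 to 275 FPKM in tamoxifen samples, a ratio of means of 1.71. The 10 Hist2 genes on chromosome 3 had a ratio of 1.16, and 5 of the 10 lay above 0. Of the 3 Hist3 genes on chromosome 11, 0 lay above 0, and their ratio was 0.766. Tested were 45 genes of Hist1, 4 of Hist2, Hist2h3b included, 2 of Hist3 and 0 of Hist4. Few genes outside Hist1 could therefore be called. Hist3h2a, an H2A gene whose model runs 1487 bases past the stem-loop and which was chosen after its values were seen, was at 1.30, 1.90 and 3.54 FPKM in untreated and 1.23, 1.51 and 2.06 FPKM in tamoxifen samples (-0.38 ± 0.19, adjusted p = 0.208).

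Several H2A and H2B genes lie head to head and share the stretch between their 5′ ends. Distances here run between the ends of the annotated models. For coding-only models, such as those of Hist1h2ah, Hist1h2bk and Hist1h2bj, these ends are start codons and not transcription start sites. Hist1h2ag and Hist1h2bj are 280 bases apart, Hist1h2ah and Hist1h2bk 334, and both genes of each of these pairs rose. In 6 other pairs 1 gene rose and its partner did not pass. Hist1h2an rose by 0.99 and its partner Hist1h2bp, 269 bases away, differed by 0.49 (adjusted p = 0.294). Hist1h2ae rose and Hist1h2bg, 179 bases away, differed by 0.08 (adjusted p = 0.742). In other pairs the partners differed by about as much and just missed the threshold. Hist1h2bf differed by 0.87 (adjusted p = 0.0510) beside Hist1h2ad, which rose by 0.87, and Hist1h2bl by 0.76 (adjusted p = 0.0514) beside Hist1h2ai, which rose by 0.81. These partner genes were named after their values were seen. The 250 bases before the RefSeq start of Hist1h2bk are printed because they span most of the stretch it shares with Hist1h2ah. The motifs searched are in capitals (RefSeq, GRCm38.p6, plus strand).
Hist1h2bk promoter, chr13:22035571-22035820: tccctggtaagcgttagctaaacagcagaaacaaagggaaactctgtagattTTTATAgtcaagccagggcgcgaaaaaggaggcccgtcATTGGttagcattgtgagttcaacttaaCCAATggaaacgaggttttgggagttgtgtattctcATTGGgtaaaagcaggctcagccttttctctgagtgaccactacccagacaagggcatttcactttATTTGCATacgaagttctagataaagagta
Capitals mark CCAAT, ATTTGCAT and TATAAA on either strand. The octamer ATTTGCAT, bound by OCT family factors, was present in the promoter windows (250 bases before to 50 after the start) of 7 of 17 matched H2A genes and 6 of 15 H2B genes, in 0 of the 28 genes of the other families, and in 1.74% of all 32851 windows. The windows of head-to-head genes can overlap, and both strands were searched. A single octamer can therefore count for both H2A and H2B, and Hist1h2ah and Hist1h2bk are both among the genes counted. CCAAT was in every matched window of H1, H2A, H2B and H3 and in 3 of 12 of H4, against 37.4% of all windows. TATAAA was in 40.0 to 66.7% of the windows of each family, against 13.6%.

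The counts behind single members are small. The deposited confidence bounds of short genes fall on regular steps, with 97.4 to 98.7% of them within 0.02 of a whole step, and if 1 step is 1 fragment the libraries hold 27100000, 25900000 and 20800000 fragments (untreated) and 21400000, 23800000 and 17800000 (tamoxifen). On that reading the bounds of Hist1h3c were 33 and 70 fragments in untreated replicate 1 and 70 and 120 in tamoxifen replicate 1, those of Hist1h4d 5 and 24 against 11 and 33, and those of Hist1h4i 157 and 234 against 189 and 269. For each of these genes and samples the deposited FPKM lies above the FPKM of the upper bound. The bounds are therefore not intervals around the FPKM values given above. How they were made is not given in the sources used here, and they are not read as the spread between cultures. Members also share sequence. In 47 of the 64 members with a coding sequence at least 50% of windows of 51 bases recur in another member, in 8 all of them do and in 6 none, and 19 of the 21 genes that rose are among the 47. Hist1h1a is one of the 6. How the authors divided reads between copies is not given in the sources used here, and values of near-identical members are uncertain one by one.

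Genes that make and handle histone mRNA and genes of the cell cycle were read beside the members. Over all tested genes the blocked fit called 4.33% higher and 6.06% lower, and the median difference was -0.02. Single calls in lists of this size are not read as a result about the list. None of 6 genes of histone gene transcription, 11 of 3′ end processing and 6 of histone mRNA translation and decay passed the test, with medians of -0.27, 0.08 and 0.01. Npat, which activates histone genes in S phase, was at 6.51, 9.35 and 11.6 FPKM in untreated and 4.34, 8.64 and 10.7 FPKM in tamoxifen samples (-0.27 ± 0.13, adjusted p = 0.215). Slbp, which encodes the stem-loop binding protein, differed by 0.08 ± 0.09 (adjusted p = 0.553). Of 27 S phase genes 26 lay above 0 with a median of 0.16, and 2 rose, Tk1 by 0.40 (adjusted p = 0.0412) and Gins1 by 0.40 (adjusted p = 0.0335). Pcna, the replication clamp, was at 164, 112 and 161 FPKM in untreated and 196, 151 and 175 FPKM in tamoxifen samples (0.27 ± 0.10, adjusted p = 0.122). None of 12 genes of G2 and M phase passed, with a median of 0.14, and 1 of 13 histone chaperones did, Chaf1b (0.44 ± 0.10, adjusted p = 0.0366).

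Of 11 replacement histone genes, which are expressed outside S phase too and whose mRNAs are polyadenylated, 4 rose and 0 fell, with a median of 0.11. Over all tested genes 4.33% rose and 6.06% fell. H2afz was at 213, 160 and 187 FPKM in untreated and 372, 213 and 244 FPKM in tamoxifen samples (0.53 ± 0.11, adjusted p = 0.0278). H2afy, H1fx and Cenpa rose by 0.45, 0.47 and 0.38 (adjusted p = 0.0286, 0.0203 and 0.0377). H3f3b differed by 0.06 ± 0.10 (adjusted p = 0.718). H2afx, which has the stem-loop but is also polyadenylated, was at 124, 80.0 and 96.2 FPKM in untreated and 135, 85.0 and 95.0 FPKM in tamoxifen samples (0.06 ± 0.09, adjusted p = 0.665).

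Other RNAs without a polyA tail were listed because the libraries were made from tailed RNA. Of these RNAs 1 of 5 tested rose, against 4.33% of all tested genes. Of 13 listed, 9 were in the files and 5 passed the filter, with a median of 0.82. Rpph1, the RNA of RNase P, was at 150, 97.8 and 45.1 FPKM in untreated and 316, 331 and 167 FPKM in tamoxifen samples, and rose by 1.57 ± 0.16 (adjusted p = 0.00344) without overlap. Scarna13 differed by 0.89 ± 0.27 (adjusted p = 0.0754), Terc, the telomerase RNA, by 0.82 ± 0.34 (adjusted p = 0.154) and Rmrp by 0.07 ± 0.22 (adjusted p = 0.859). Rn45s, the ribosomal RNA precursor, was at 264, 306 and 224 FPKM in untreated and 254, 274 and 257 FPKM in tamoxifen samples (-0.01 ± 0.10, adjusted p = 0.976). Among 114 small nucleolar and Cajal body RNA names 34 passed the filter, with a median of -1.09, on loci of 54 to 273 bases where FPKM is least stable. Of these 34, 0 rose and 4 fell, against 6.06% lower over all tested genes. The part of tail selection in the differences of the clustered histone genes was not tested.

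**Figure D4:**
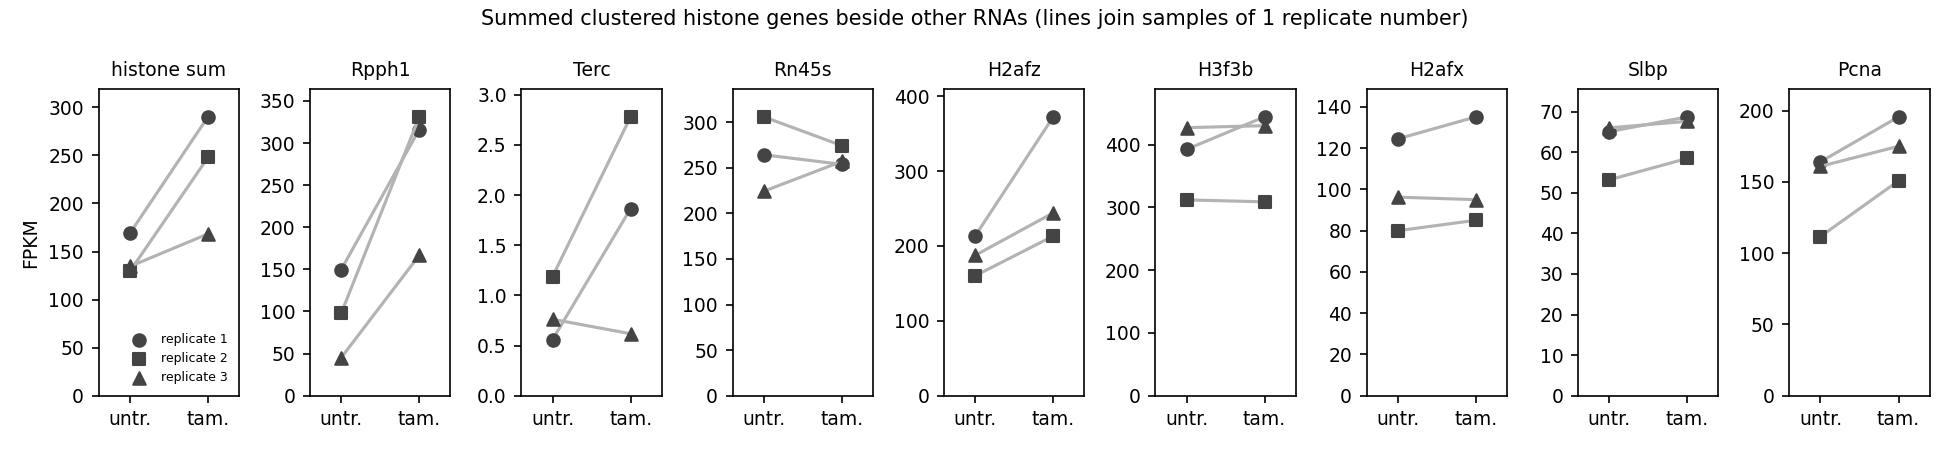
FPKM (linear axes from 0) of the 67 clustered histone genes summed, of Rpph1, Terc and Rn45s, of the replacement histones H2afz, H3f3b and H2afx, and of Slbp and Pcna in the 3 untreated (untr.) and 3 tamoxifen (tam.) samples, with lines joining samples of 1 replicate number. Rpph1 and the histone sum lie higher in the tamoxifen sample of all 3 replicate numbers, and Rn45s and H3f3b do so in 1 and 2 of 3.

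Cell type markers of ESCs and of the feeder cells were checked. All 8 ESC markers were tested and 0 passed, and Pou5f1 was at 369 to 690 FPKM in untreated and 475 to 832 FPKM in tamoxifen samples. Of the 10 fibroblast markers of the feeder cells 9 were tested and 1 fell, Fbln2 (-0.43 ± 0.11, adjusted p = 0.0463), against 6.06% of all tested genes. Their summed level was 54.4, 159 and 111 FPKM in untreated and 58.4, 146 and 102 FPKM in tamoxifen samples, and Lum was under 0.3 FPKM in every sample. In both groups that sum was lowest in replicate 1 and highest in replicate 2.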

How the data were processed

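Polyadenylated RNA was made into directional libraries (NEBNext Ultra Directional). Per the paper's methods and the labels, the authors aligned reads to mm9 with TopHat2 and quantified refGene models with Cuffdiff 2.1.1. The deposited values are FPKM per gene row, with interval bounds and a status, in 6 tables of 23874 rows. Rows of 1 name were summed, 6 names with a failed status were left out, and limma 3.58.1 (R 4.3.3, eBayes with trend, Benjamini-Hochberg over 12997 genes) tested tamoxifen minus untreated after a log2 transform of FPKM plus a pseudocount of 0.1, which understates changes of low genes.

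The replicate numbers pair the samples: deviations of same-numbered samples from their group means correlated at 0.544, 0.605 and 0.506 over genes, so a fit with the number as a block was set beside the fit without it. Scripts were tested on simulated data. Sequences came from NCBIM37 with GENCODE annotation and from RefSeq promoters, of which 60 members matched. Alternatives were other scalings, filters, pseudocounts and left-out replicates. Genes named are members past the threshold in either fit and the 3 highest of each family, with set genes of the comparison lists, and other genes, in the comparison lists H2afx, Terc, Scarna13, Rmrp, Rn45s, Pou5f1 and Lum, were named after their values were seen. The members and lists were chosen with earlier results of these data known. The ChIP-seq samples were not analysed here.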

Additional observations from a re-analysis of the deposited data

How the results depend on the processing

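Without a block, 0 members were called higher or lower by limma under every scaling, filter and pseudocount tried. With the replicate number as a block 22 were called higher (4.33% of all tested genes), and with the block and quantile normalization 24. Of 3 blocked fits chosen after the data had been seen, TPM scaling called 27 higher and 1 lower, leaving out loci under 300 bases together with TPM scaling 21 higher and 1 lower, and a pseudocount of 1 called 25 higher. The shares of all tested genes called in these 3 fits and in the blocked quantile fit are not given here. Their member counts therefore have no background and are not read as a result. Hist2h3b was not taken out of the counts in this paragraph. Leaving out replicates gave 0 to 27 higher and 0 to 2 lower. In the blocked fit the counts higher were 27, 1 and 20 without numbers 1, 2 and 3 (5.72, 0.277 and 2.76% of all tested genes), where fewer samples were fitted. The lower calls were Hist1h1c and Hist1h4m, the latter named after its values were seen. The median difference of 0.58 over the 67 members became 0.32 with a pseudocount of 1, 0.81 for members of at least 1 FPKM in all samples and 0.82 for members past the filter, and ranged from 0.51 to 0.78 when single samples and from 0.50 to 0.62 when replicate numbers were left out. The log2 ratio of summed FPKM (0.71) stayed between 0.53 and 0.90 under every setting, and was 0.63 without Hist1h2ao. The difference of Hist1h2bc ranged from -0.54 to 0.11 when single samples were left out, above 0 only without untreated replicate 3. The blocked fit without replicate number 3 gave -0.06 for this gene. The difference of Hist3h2ba ranged from -0.52 to 0.016, above 0 only without untreated replicate 1. It was 0.055 in the blocked fit without replicate number 3. The cause of these changes was not tested. Depth limits single members: with the steps read as fragments, the median lower bound of members under 600 bases was 1 to 8 fragments per library and the median upper bound 16 to 29. As said above, these bounds are not intervals around the FPKM values, so they do not give the exact count behind a member.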
